A study of Mus musculus with 12 samples.

Results

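The 35 genes described here encode proteins of the cardiac sarcomere, of its Z-disc and of the machinery that builds and maintains it. They were taken from the table of normalized counts by gene symbol, 35 of 53882 gene rows. The symbols were chosen with earlier results of these data known. Each symbol matched 1 row, and all 35 passed the filter on low values that left 13392 genes for testing. They fall by role into 6 genes of the thick filament and M-band, 7 of the thin filament, 16 of the Z-disc and 6 kinases, chaperones and assembly factors.

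In a heart muscle cell, force comes from myosin thick filaments sliding along actin thin filaments within the sarcomere, under the control of calcium through the troponin and tropomyosin complex. Thin filaments of neighbouring sarcomeres are anchored to each other at the Z-disc, where alpha-actinin crosslinks actin and many adaptor proteins sense load and bind signalling enzymes, while titin spans from the Z-disc to the M-band in the middle of the thick filament. Pressure overload makes heart muscle cells grow by adding sarcomeres, and mutations in many of these genes cause inherited cardiomyopathy.

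Heart RNA came from 12 C57BL/6 mice with a labelled age of 4 months, with 1 library from each. Control mice (Ctrl) and CIP-overexpressing mice (CIP-OE) had either sham surgery or TAC, which gives 4 groups of 3 animals. TAC is transverse aortic constriction, an operation that raises the pressure against which the left ventricle pumps, and RNA was taken 8 weeks after it. Mice of all groups carried the CIP-KI-flox allele, a CIP transgene in the Rosa locus behind a floxed stop, and the controls were littermates with that allele alone. CIP-OE mice also carried aMHC-Mer-Cre-Mer, a tamoxifen-dependent Cre under a heart muscle promoter, and tamoxifen was injected intraperitoneally, per the study's text after the TAC surgery, to switch on CIP, the product of the Mlip gene. Whether controls received tamoxifen, and the sex of the mice, are not given in the sources used here. The overexpression of CIP and the presence of Cre therefore cannot be told apart.

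Between 6990445 and 7704812 reads per library were recovered from the table, and 33.9% to 54.0% of them came from mitochondrial genes. Mlip stood at 823 to 1322 normalized counts in the 6 control libraries, at 1910.5 to 5492 in CIP-OE-Sham and at 5909 to 8232 in CIP-OE-TAC. Of 5 atrial markers 3 were under 10 normalized counts in every library, with Myl7 at most 1.74 and Sln at most 0.94, and the list, mostly Dkk3, summed to at most 27.8 in sham hearts, 86.8 to 118 in Ctrl-TAC and 39.4 to 164 in CIP-OE-TAC. Of 9 skeletal muscle markers 7 were under 10 in every library, and the list, mostly Mybpc2, summed to 39.7 to 104 in sham hearts, 161 to 200 in Ctrl-TAC and 134 to 214 in CIP-OE-TAC. The 3 Ctrl-TAC libraries stood apart in base composition, with genes of high GC content raised over genes of low GC content by 0.52 to 0.77 on the log2 scale, against -0.48 to 0.0070 in the other 9 libraries. Labels and methods name no batch, so this composition and TAC in controls cannot be told apart, and values corrected for GC content are given beside the calls below. In whole tissue, fewer cells of a type and less RNA per cell cannot be told apart.

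Levels per kilobase of exon differed widely among the 35 genes. Myl2, the regulatory light chain of ventricular myosin, was the most abundant, at 13457 normalized counts per kilobase averaged over the 12 libraries. The troponin subunits Tnnc1 and Tnni3, which bind calcium and inhibit the actin and myosin interaction, reached 7122 and 6401 per kilobase, with Myl3, the essential light chain, between them at 6508. Tropomyosin (Tpm1) followed at 4785 per kilobase and myosin binding protein C (Mybpc3) at 3409.8. All of the 7 highest were filament proteins, and the highest Z-disc gene was Tcap, the titin cap telethonin, at 2802 per kilobase. The kinase Speg (102), the myosin chaperone Unc45b (97.9) and the Z-disc adaptors Synpo2 (94.3) and Pdlim3 (28.5) lay at the bottom on the same scale. As a group, the 35 genes took 6.06 ± 0.185% of the non-mitochondrial reads in Ctrl-Sham, 6.04 ± 0.314% in Ctrl-TAC, 6.28 ± 0.297% in CIP-OE-Sham and 6.17 ± 0.172% in CIP-OE-TAC (SD, n = 3 each). These shares overlapped between all 4 groups.

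Hearts of 1 group differed from each other more in Ctrl-TAC than in the other groups. The median coefficient of variation of the 35 genes was 19.6% there, against 7.16% in Ctrl-Sham, 10.1% in CIP-OE-Sham and 7.84% in CIP-OE-TAC. In 10 of the genes it passed 25% in Ctrl-TAC, against 2 genes in each other group. The wider spread was not particular to the 35 genes. Over all genes tested, pairs of Ctrl-TAC libraries had a chi-square of 13.9 to 24.6 per degree of freedom, against 3.85 to 15.1 for pairs within the other groups. The Ctrl-TAC heart labelled Ctrl_TAC_3586 held the lowest value of its group for 22 genes and the highest for 9, while Ctrl_TAC_4231 held the highest for 19. Tcap varied most within Ctrl-TAC and CIP-OE-Sham (48.5% and 55.4%) and Pdlim3 most within the other groups (44.9% in Ctrl-Sham and 33.1% in CIP-OE-TAC), and neither gene was called in any comparison as tested.

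**Figure D1:**
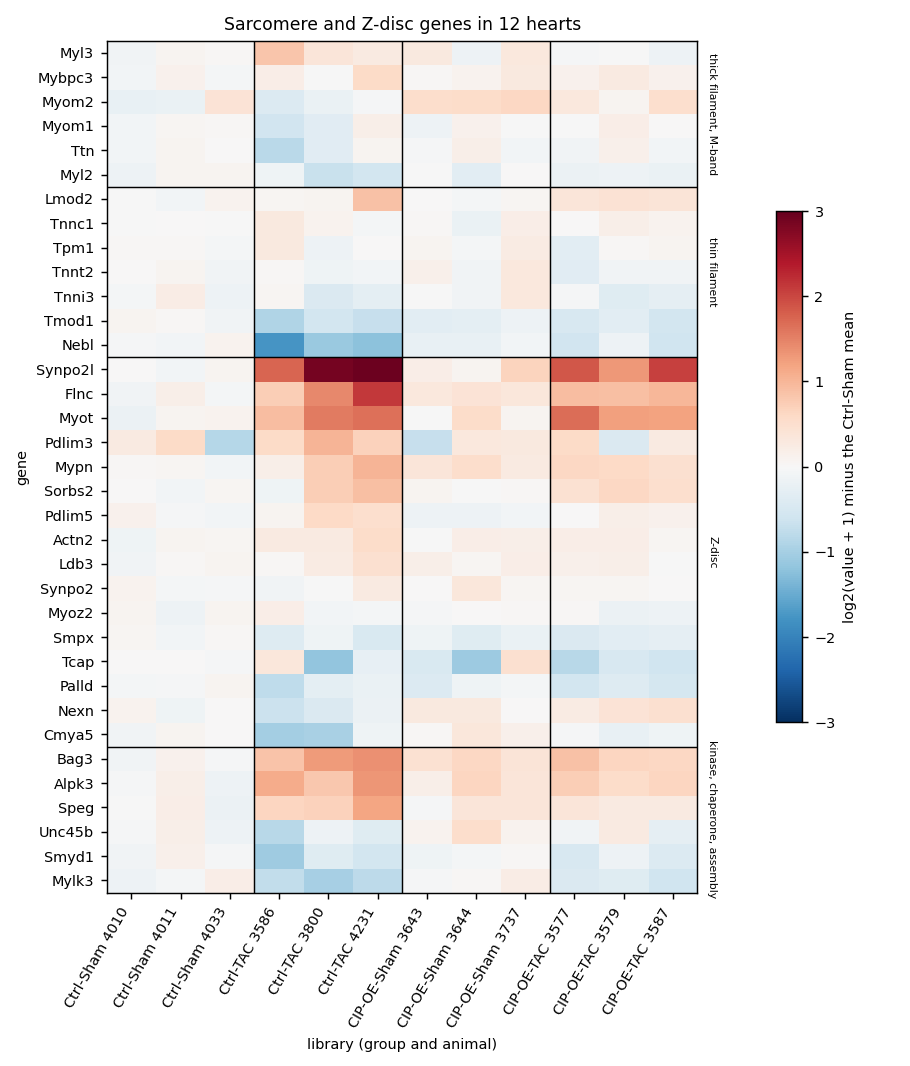
Each row is 1 of the 35 genes, grouped by role and ordered within a role by its change after TAC in controls, and each column is 1 heart. Colour gives log2(normalized count + 1) minus the Ctrl-Sham mean of that gene. Synpo2l, Flnc, Myot, Bag3 and Alpk3 are red and Nebl, Tmod1 and Mylk3 are blue in all 3 Ctrl-TAC hearts, and Ctrl_TAC_3586 differs visibly from the other 2 in its group.

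TAC in control hearts was compared first, as the contrast of TAC with sham surgery without CIP overexpression. Of the 35 genes, 11 rose and 9 fell at an adjusted p under 0.05, with a background of 20.7% of all 13392 genes called higher and 20.2% called lower. The median log2 fold change of the 35 was 0.044, against 0.0022 over all genes tested. After correction of each library for GC content the split was 7 higher and 10 lower, 13 of the 20 calls remained, and the median was -0.12, against -0.038 over all genes. The background with this correction was 1231 higher and 1567 lower of the 13259 genes with a known GC content. In 9 of the genes every Ctrl-TAC heart was above every Ctrl-Sham heart, and in 8 every one was below, with backgrounds of 25.2% and 25.5% of all genes. Below, the 3 values of a group follow the order of the labels: Ctrl_Sham_4010, Ctrl_Sham_4011 and Ctrl_Sham_4033, then Ctrl_TAC_3586, Ctrl_TAC_3800 and Ctrl_TAC_4231, then KI_Sham_3643, KI_Sham_3644 and KI_Sham_3737, and last KI_TAC_3577, KI_TAC_3579 and KI_TAC_3587, where KI stands for CIP-OE.

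In the thick filament and M-band, the 2 myosin light chains moved in opposite directions and the 4 structural proteins were not called. Myl3 measured 10889, 12460.0 and 12087 in Ctrl-Sham, 21006, 15252 and 14296 in Ctrl-TAC, 14444, 10692 and 14711 in CIP-OE-Sham and 11499.6, 11731 and 10571 in CIP-OE-TAC. It was higher in every Ctrl-TAC heart than in any sham control, and in CIP-OE-TAC hearts it lay within the range of Ctrl-Sham apart from 1 slightly lower heart. The log2 fold change after TAC in controls was 0.49 ± 0.15 (SE), adjusted p = 0.014. Myl2 fell by 0.45 ± 0.15 (SE) on the log2 scale, adjusted p = 0.0177, with overlapping groups. Titin (Ttn), the longest of the proteins and the gene of this role with the highest count, measured 35035, 39304 and 37868 in Ctrl-Sham, 21472, 29293 and 39264 in Ctrl-TAC, 36626, 41972 and 35319.9 in CIP-OE-Sham and 34645, 41231 and 35189 in CIP-OE-TAC. Ctrl_TAC_3586 was far below all other hearts and Ctrl_TAC_4231 above most, and the change of -0.36 ± 0.17 (SE), adjusted p = 0.0909, was not called. The myomesins Myom1 and Myom2, which crosslink thick filaments at the M-band, and Mybpc3 had log2 fold changes of -0.24, -0.21 and 0.26, none of them called. The calls of both light chains were lost without a single library, with adjusted p up to 0.0738 for Myl3 (Ctrl_TAC_3586 or Ctrl_Sham_4010 left out) and 0.0886 for Myl2 (Ctrl_TAC_3800, Ctrl_Sham_4011 or Ctrl_Sham_4033 left out). With GC correction Myl2 was called lower (-0.54, adjusted p = 0.0132) and Myl3 was not called (0.32, adjusted p = 0.14).

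Among thin filament genes, none rose and 2 of 7 fell. Nebl encodes nebulette, the cardiac relative of nebulin that ties thin filaments to the Z-disc. It lies at chr2:17343909-17731464 (minus strand) in GRCm38 and measured 3344, 3259.8 and 3699 in Ctrl-Sham, 1000.2, 1574 and 1467 in Ctrl-TAC, 2938, 2922 and 3218 in CIP-OE-Sham and 2302, 3098 and 2270.4 in CIP-OE-TAC. Every Ctrl-TAC heart was below every other heart in the study, and the log2 fold change in controls was -1.37 ± 0.16 (SE), adjusted p = 3.04e-06, the smallest p of the 35 genes. Tropomodulin (Tmod1), which caps the pointed ends of thin filaments, measured 2915, 2812 and 2538 in Ctrl-Sham, 1471, 1863 and 1703 in Ctrl-TAC, 2224, 2262 and 2472 in CIP-OE-Sham and 1959, 2224 and 1868 in CIP-OE-TAC. It was lower in all Ctrl-TAC hearts than in any sham heart of either genotype, with a log2 fold change of -0.72 ± 0.12 (SE), adjusted p = 0.000174. Tpm1 had the highest count of the role, with 31149, 30939 and 29091 in Ctrl-Sham, 37338, 27369 and 30737 in Ctrl-TAC, 32391, 29376 and 36234 in CIP-OE-Sham and 24574, 31098 and 32069.9 in CIP-OE-TAC. Its groups overlapped and its log2 fold change was 0.055 ± 0.14 (SE), adjusted p = 0.787. The 3 troponin subunits ranged from -0.23 for Tnni3 to 0.11 for Tnnc1 and Lmod2, a leiomodin that promotes thin filament elongation, was at 0.34, and none of the 4 was called. With GC correction Nebl and Tmod1 kept their calls (-0.81, adjusted p = 0.000541, and -0.85, adjusted p = 8.19e-05). Tnni3 was called lower there (-0.76, adjusted p = 0.000444) and with GC and length correction (-0.79, adjusted p = 0.000103), and Tnnc1 was called lower with the latter (-0.36, adjusted p = 0.0192).

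Z-disc genes held the largest rises, with 7 of 16 higher and 4 lower. Synpo2l, a Z-disc protein of the synaptopodin family that associates with actin and alpha-actinin, lies at chr14:20658946-20668354 (minus strand) and measured 711, 663 and 746 in Ctrl-Sham, 2373, 5154 and 5447 in Ctrl-TAC, 807, 751 and 1124 in CIP-OE-Sham and 2556, 1726 and 2951 in CIP-OE-TAC. The Ctrl-TAC hearts stood above all sham hearts by far, with Ctrl_TAC_3586 below the others in its group. The log2 fold change of 2.52 ± 0.31 (SE), adjusted p = 0.000105, was the greatest of the 35 genes in this comparison. Filamin C (Flnc), an actin crosslinker that stabilizes the Z-disc under load, measured 1533, 1839 and 1567 in Ctrl-Sham, 2725, 4447 and 7151 in Ctrl-TAC, 2027, 2169 and 2089 in CIP-OE-Sham and 3128, 3063 and 3271 in CIP-OE-TAC. Both TAC groups were above both sham groups in every heart, and the Ctrl-TAC hearts were spread over a wide range while the CIP-OE-TAC hearts lay close together. In controls the log2 fold change was 1.43 ± 0.25 (SE), adjusted p = 0.000606. Myotilin (Myot), which binds alpha-actinin and filamin C, measured 367, 437 and 443 in Ctrl-Sham, 788, 1216 and 1303 in Ctrl-TAC, 413, 609 and 439 in CIP-OE-Sham and 1323, 968 and 952 in CIP-OE-TAC. Each TAC heart of either genotype was above each sham heart, and the log2 fold change in controls was 1.38 ± 0.19 (SE), adjusted p = 4.6e-05. Mypn (myopalladin, which links nebulin-family proteins to alpha-actinin) rose by 0.64 ± 0.16 (SE), adjusted p = 0.00334. With GC correction Synpo2l (1.93, adjusted p = 0.00196) and Myot (1.62, adjusted p = 3.86e-05) kept their calls, while Flnc (0.69, adjusted p = 0.111) and Mypn (0.30, adjusted p = 0.224) lost theirs.

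Among the other Z-disc genes 7 were called. Alpha-actinin (Actn2), the main actin crosslinker of the Z-disc and the gene of this role with the highest mean count, measured 7218, 8450.2 and 8204 in Ctrl-Sham, 9613, 9587 and 11542 in Ctrl-TAC, 7878, 9110.0 and 8904 in CIP-OE-Sham and 9162, 9134 and 8309 in CIP-OE-TAC. All Ctrl-TAC hearts were higher than all Ctrl-Sham hearts, with a log2 fold change of 0.36 ± 0.12 (SE), adjusted p = 0.0246. The PDZ and LIM adaptor Pdlim5 and the adaptor Sorbs2 rose by 0.39 and 0.50 on the log2 scale (adjusted p = 0.0249 and 0.0384), both with overlapping groups. Myospryn (Cmya5), a large costamere and Z-disc anchoring protein, measured 5209, 5912 and 5668 in Ctrl-Sham, 2771, 2836 and 5104 in Ctrl-TAC, 5711, 7109.8 and 6189 in CIP-OE-Sham and 5433, 4785 and 5096 in CIP-OE-TAC. Ctrl_TAC_3586 and Ctrl_TAC_3800 were far below all others, while Ctrl_TAC_4231 lay just under the Ctrl-Sham hearts, and the log2 fold change was -0.71 ± 0.18 (SE), adjusted p = 0.00456. Nexilin (Nexn), an actin binding protein of the Z-disc, measured 3104, 2616 and 2913 in Ctrl-Sham, 1836, 2140.4 and 2544 in Ctrl-TAC, 3515, 3520.3 and 2874 in CIP-OE-Sham and 3389, 3823 and 4021 in CIP-OE-TAC. Its Ctrl-TAC hearts were below all other hearts of the study, with a change of -0.41 ± 0.14 (SE), adjusted p = 0.0214. Palld (palladin) fell by 0.41 and Smpx, a small muscle protein, by 0.32 on the log2 scale (adjusted p = 0.0268 and 0.0399), both without overlap. The adaptors Ldb3, Myoz2, Synpo2 and Pdlim3 and the titin cap Tcap were not called, with log2 fold changes from -0.36 for Tcap to 0.76 for Pdlim3. Nexn, Actn2, Pdlim5, Palld, Sorbs2 and Smpx lost their calls when 1 library of either group was left out, with adjusted p up to between 0.0958 (Nexn) and 0.169 (Sorbs2), and each of the 6 libraries ended at least 1 of these calls. GC correction ended the calls of Nexn, Actn2 and Smpx and turned their direction, to 0.17, adjusted p = 0.366, to -0.12, adjusted p = 0.547 and to 0.085, adjusted p = 0.637. Pdlim5 (0.75, adjusted p = 0.000306), Sorbs2 (1.13, adjusted p = 0.000165), Cmya5 (-0.69, adjusted p = 0.0104) and Palld (-0.63, adjusted p = 0.00367) kept theirs, Myoz2 was called higher (0.60, adjusted p = 0.00279) and Tcap lower (-1.28, adjusted p = 0.0458).

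Kinases, chaperones and assembly factors had 3 rises and 2 falls among 6 genes. Bag3, a co-chaperone that clears damaged filamin at the Z-disc through autophagy, lies at chr7:128523616-128546981 (plus strand) and measured 1236, 1457 and 1296 in Ctrl-Sham, 2399, 3192 and 3444 in Ctrl-TAC, 1832, 2029 and 1732 in CIP-OE-Sham and 2446, 2086 and 2025 in CIP-OE-TAC. Its Ctrl-TAC hearts exceeded all sham hearts, with a log2 fold change of 1.17 ± 0.14 (SE), adjusted p = 4.86e-06. Alpk3, an alpha-kinase family protein needed for an ordered sarcomere, lies at chr7:81057600-81105612 (plus strand) and measured 752, 873 and 695 in Ctrl-Sham, 1665, 1348 and 1924 in Ctrl-TAC, 874, 1204 and 984 in CIP-OE-Sham and 1279.7, 1128 and 1205 in CIP-OE-TAC, and its log2 fold change was 1.08 ± 0.15 (SE), adjusted p = 1.87e-05. Every Ctrl-TAC heart was above every heart of the other 3 groups for Alpk3. Speg, a kinase related to myosin light chain kinase that acts at the junctions of the sarcoplasmic reticulum, measured 981, 1142 and 871 in Ctrl-Sham, 1549, 1612 and 2269.5 in Ctrl-TAC, 974, 1275 and 1283 in CIP-OE-Sham and 1274, 1198 and 1191 in CIP-OE-TAC, again with all Ctrl-TAC hearts on top. It rose by 0.85 ± 0.15 (SE), adjusted p = 0.000261. With GC correction Bag3 (0.60, adjusted p = 0.00632) and Alpk3 (0.45, adjusted p = 0.0287) kept their calls, and Speg, the richest of the 35 genes in GC, turned to -0.16, adjusted p = 0.495.

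Mylk3 and Smyd1 went down. Mylk3, the cardiac myosin light chain kinase whose substrate is Myl2, measured 2472, 2616 and 3132 in Ctrl-Sham, 1640.2, 1371 and 1580.4 in Ctrl-TAC, 2664, 2813 and 3178 in CIP-OE-Sham and 2028, 2115 and 1813 in CIP-OE-TAC. The Ctrl-TAC hearts were the lowest of the study, and both TAC groups lay below both sham groups. In controls the log2 fold change was -0.84 ± 0.13 (SE), adjusted p = 5.99e-05. Smyd1, a methyltransferase needed for myofibril assembly and the gene of this role with the highest count, measured 4504, 5345 and 4712 in Ctrl-Sham, 2323, 3784 and 3308 in Ctrl-TAC, 4442, 4619.9 and 4950.2 in CIP-OE-Sham and 3451, 4361 and 3666 in CIP-OE-TAC. All Ctrl-TAC hearts were below all Ctrl-Sham hearts, with a change of -0.65 ± 0.15 (SE), adjusted p = 0.00223. Unc45b, the chaperone that folds the myosin head, had a log2 fold change of -0.45 and was not called (adjusted p = 0.0526). With GC correction Mylk3 (-0.93, adjusted p = 6.52e-05) and Smyd1 (-0.71, adjusted p = 0.00212) kept their calls, and Unc45b was called lower (-0.86, adjusted p = 0.00591).

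**Figure D2:**
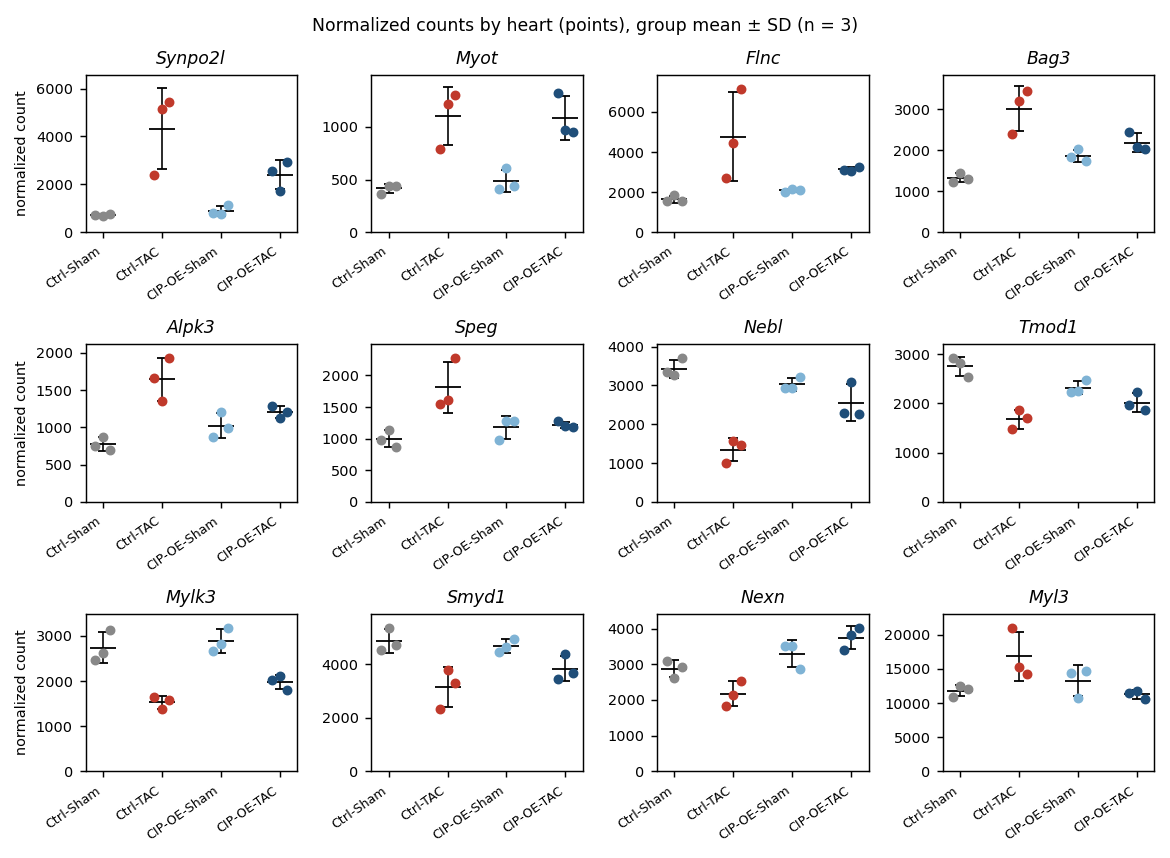
Normalized counts of 12 of the genes, with 1 point per heart, a bar at the group mean and whiskers of 1 SD (n = 3). Every axis starts at 0. Ctrl-TAC points lie above all sham points for Synpo2l, Myot, Flnc, Bag3, Alpk3 and Speg and below them for Nebl, Tmod1, Mylk3 and Smyd1, and the CIP-OE-TAC points of Nebl, Nexn, Speg and Alpk3 do not overlap those of Ctrl-TAC.

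Some counts may include reads of a neighbouring gene. Exons of Myom1, Tmod1, Cmya5, Sorbs2, Unc45b, Myl2, Ttn and Myl3 overlap those of a gene on the other strand, and the use of strand in counting is not given. The largest such neighbours were Myl12a beside Myom1 (mean 2511 normalized counts), Tstd2 beside Tmod1 (1449) and A630019I02Rik beside Cmya5 (1414). Nexn and Tnni3 share exon bases with Gm43185 and Dnaaf3 on the same strand, at means of 98.7 and 41.2.

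Promoter sequence is shown for genes that rose or fell after TAC in controls, so that members which moved together can be read side by side. Windows of 250 bases before to 50 after the start were taken from RefSeq (GRCm38.p6), which held 48 windows for 31 of the 35 genes. Nexn, Tcap, Myom2 and Myot had no entry. The 3 called genes with the smallest adjusted p in each direction among those with 1 start were taken, together with Synpo2l, the gene with the greatest rise, for which the one of 2 starts nearest to the annotated gene start was used. Searched on both strands were 4 motifs, the MEF2 site, bound by a muscle transcription factor, the CArG box of serum response factor, CATTCC, the core bound by TEAD factors, and TATAAA. The MEF2 site and TATAAA can overlap. Printed here are the 5 of the 7 that hold a match, written 5′ to 3′ on the gene's strand with matches in capitals.

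Alpk3 (rose, chr7:81057350-81057649, plus strand): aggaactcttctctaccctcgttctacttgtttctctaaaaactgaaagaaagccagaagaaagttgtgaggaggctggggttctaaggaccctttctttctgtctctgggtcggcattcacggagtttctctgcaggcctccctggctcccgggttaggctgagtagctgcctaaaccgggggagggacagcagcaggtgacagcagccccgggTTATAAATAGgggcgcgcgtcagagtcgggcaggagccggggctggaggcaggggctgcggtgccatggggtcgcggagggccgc
Synpo2l (rose, chr14:20668305-20668604, minus strand): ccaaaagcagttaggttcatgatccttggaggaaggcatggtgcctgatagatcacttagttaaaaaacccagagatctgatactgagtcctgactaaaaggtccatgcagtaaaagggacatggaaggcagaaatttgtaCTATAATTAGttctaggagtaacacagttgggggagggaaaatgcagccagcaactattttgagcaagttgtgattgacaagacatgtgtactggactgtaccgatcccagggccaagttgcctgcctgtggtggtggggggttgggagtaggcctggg
Mypn (rose, chr10:63203903-63204202, minus strand): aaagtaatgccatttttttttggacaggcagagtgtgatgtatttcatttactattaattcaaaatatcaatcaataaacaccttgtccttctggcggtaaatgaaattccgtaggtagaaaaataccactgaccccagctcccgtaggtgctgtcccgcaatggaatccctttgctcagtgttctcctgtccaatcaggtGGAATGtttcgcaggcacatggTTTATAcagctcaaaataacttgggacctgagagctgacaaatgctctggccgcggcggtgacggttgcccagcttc
Tmod1 (fell, chr4:46038972-46039271, plus strand): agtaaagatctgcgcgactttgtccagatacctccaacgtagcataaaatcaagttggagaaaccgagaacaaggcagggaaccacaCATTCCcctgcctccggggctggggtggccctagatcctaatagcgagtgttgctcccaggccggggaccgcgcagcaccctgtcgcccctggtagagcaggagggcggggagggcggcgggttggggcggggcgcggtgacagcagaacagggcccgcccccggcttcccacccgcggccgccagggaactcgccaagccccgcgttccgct
Smyd1 (fell, chr6:71262232-71262531, minus strand): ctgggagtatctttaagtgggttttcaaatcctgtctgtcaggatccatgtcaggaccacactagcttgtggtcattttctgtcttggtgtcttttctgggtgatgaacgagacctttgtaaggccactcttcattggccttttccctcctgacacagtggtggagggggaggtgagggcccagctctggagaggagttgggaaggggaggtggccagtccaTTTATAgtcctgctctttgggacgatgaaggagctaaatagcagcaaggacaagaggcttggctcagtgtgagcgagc

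In the Alpk3 window the capitals are a MEF2 site that overlaps TATAAA and begins 35 bases before the start, and in Synpo2l they are a MEF2 site beginning 109 bases before it. Mypn holds CATTCC and TATAAA on the other strand, beginning 49 and 27 bases before the start. Tmod1 holds CATTCC 163 bases before the start, and Smyd1 holds TATAAA on the other strand 28 bases before it. The RefSeq start used for Smyd1 lies inside its annotated gene span (chr6:71213940-71322233, minus strand), away from the annotated gene start. The windows of Bag3 (chr7:128523333-128523632, plus strand) and Cmya5 (chr13:93144675-93144974, minus strand) hold none of these letters. Over the 48 windows of the group, the MEF2 site was found in 8 (7 genes, among them Ttn, Mybpc3 and Speg), the CArG box in 5 (4 genes, Ldb3, Myl3, Myom1 and Nebl), CATTCC in 15 (13 genes) and TATAAA in 7. Of all 32851 promoters of the same length, 3.19% held the MEF2 site, 1.63% the CArG box, 14.7% CATTCC and 13.6% TATAAA. A match is a description of the letters and not of binding, and both genes that rose and genes that fell hold matches.

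CIP-OE and control hearts under load were compared as CIP-OE-TAC against Ctrl-TAC. In CIP-OE-TAC 5 of the 35 genes were higher and 4 were lower, with a background of 9.11% of all genes called higher and 9.27% called lower, and 26 were not called. Their median log2 fold change was -0.017, against 0.0067 over all genes tested. In 5 genes all CIP-OE-TAC hearts were above and in 5 below all Ctrl-TAC hearts (backgrounds 18.4% and 17.7% of all genes). Since the Ctrl-TAC libraries enter both this comparison and the one above, an extreme value in them moves both in opposite directions, and no agreement between them is counted here.

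Nebl and Nexn differed most. Nebl had a normalized count of 1347 ± 305 in Ctrl-TAC and 2557 ± 469 in CIP-OE-TAC (SD, n = 3), a log2 fold change of 0.94 ± 0.16 (SE), adjusted p = 0.00105. For Nexn the means were 2173 ± 355 and 3744 ± 323, a log2 fold change of 0.79 ± 0.14 (SE), adjusted p = 0.00137. Neither gene overlapped between the 2 groups, and both kept the call without any 1 library. Cmya5 was higher by 0.57 ± 0.18 (SE), adjusted p = 0.0334, with Ctrl_TAC_4231 within the CIP-OE-TAC range, and Mylk3 by 0.38 ± 0.13 (SE), adjusted p = 0.0474. Myom2, the M-band protein myomesin 2, measured 4147, 4179.8 and 6394 in Ctrl-Sham, 3635, 4194 and 4708 in Ctrl-TAC, 6891, 7061 and 7405 in CIP-OE-Sham and 5942, 5060.3 and 6761 in CIP-OE-TAC. It differed by 0.50 ± 0.16 (SE), adjusted p = 0.0339, with no overlap between the TAC groups and with Ctrl_Sham_4033 apart from the other sham controls.

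Lower in CIP-OE-TAC were Myl3, Speg, Bag3 and Alpk3. Myl3 differed by -0.56 ± 0.15 (SE), adjusted p = 0.0157, and Speg by -0.55 ± 0.15 (SE), adjusted p = 0.0189. Bag3 differed by -0.45 ± 0.14 (SE), adjusted p = 0.0307, and Alpk3 by -0.44 ± 0.15 (SE), adjusted p = 0.0445. Groups did not overlap for Myl3, Speg and Alpk3, while KI_TAC_3577 (2446 for Bag3) lay just above Ctrl_TAC_3586 (2399). Synpo2l and Flnc were not called, at -0.78 ± 0.31 (SE), adjusted p = 0.1 and -0.49 ± 0.25 (SE), adjusted p = 0.186, and Myot was level between the groups at -0.011 ± 0.19. In DESeq2 Flnc was called lower (-0.60, adjusted p = 0.0387) and Synpo2l was not (-0.85, adjusted p = 0.0540), and edgeR called neither. Of the 9 calls, all but Nebl and Nexn were lost when single libraries were left out, with adjusted p up to between 0.0721 (Myl3, without Ctrl_TAC_3586 or KI_TAC_3587) and 0.165 (Mylk3), and each of the 6 libraries of these groups ended at least 1 call. After GC correction 1 of the 9 calls remained, Myom2 (0.62, adjusted p = 0.0355), Nebl was at 0.52, adjusted p = 0.0515, Nexn at 0.36, adjusted p = 0.12, Speg turned to 0.20, adjusted p = 0.535, and 2 genes not called before, Myoz2 and Pdlim5, were lower. The background with this correction was 199 higher and 240 lower of 13259 genes.

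TAC in CIP-OE hearts gave 2 calls among the 35 genes. Myot rose and Mylk3 fell, and 33 were not called, with a background of 0.754% of all genes called higher and 0.508% called lower. Myot went from 487 ± 107 to 1081 ± 210.0 (SD, n = 3), a log2 fold change of 1.15 ± 0.19 (SE), adjusted p = 0.00706. Mylk3 went from 2885 ± 264 to 1985 ± 156, with -0.54 ± 0.13 (SE), adjusted p = 0.0445. The Mylk3 call was lost when any of the 3 CIP-OE-Sham libraries was left out, among others, with adjusted p up to 0.231, and the Myot call was kept throughout. Both calls were kept with GC correction (1.14, adjusted p = 0.00739 for Myot and -0.56, adjusted p = 0.0312 for Mylk3). Synpo2l had a greater log2 fold change than either but was not called (1.42 ± 0.31 (SE), adjusted p = 0.0588), with all CIP-OE-TAC hearts above all CIP-OE-Sham hearts. Synpo2l was called higher in edgeR (adjusted p = 0.0493) and in DESeq2 (adjusted p = 0.00241). It was not called with GC correction (1.34, adjusted p = 0.0744) or with GC and length correction (1.35, adjusted p = 0.0751). Limma fits without 1 library gave adjusted p from 0.00141 to 0.212. The median of the 35 genes was -0.037, against 0.0034 over all genes. In 6 genes (Myot, Synpo2l, Flnc, Sorbs2, Lmod2 and Pdlim5) all CIP-OE-TAC hearts were above all CIP-OE-Sham hearts, and in 5 they were below (backgrounds 9.62% and 9.14%).

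Without TAC, CIP overexpression gave no call among the 35 genes in limma, edgeR or DESeq2. At an unadjusted p under 0.05, 4 of them passed in limma, Myom2 with a log2 fold change of 0.57 ± 0.16 (SE), adjusted p = 0.196, Bag3 with 0.49 ± 0.14 (SE), adjusted p = 0.204, Alpk3 with 0.39 ± 0.15 (SE), adjusted p = 0.318, and Mypn with 0.40 ± 0.16 (SE), adjusted p = 0.353. All 4 were higher in CIP-OE-Sham. Over all genes, 1503 of 13392 passed at an unadjusted p under 0.05. At an adjusted p under 0.05, the background of calls was 0.0149% of all genes higher and 0.00747% lower. The median of the 35 was 0.099, against -0.00054 over all genes, and single genes ranged from -0.35 for Tcap to 0.57 for Myom2. With GC correction none was called and the median was 0.088, against 0.0045 over all genes. GC content was 51.8% for Myom2, 56.1% for Bag3, 57.1% for Alpk3 and 53.5% for Mypn, against a median of 50.7% over the 35 genes. CIP-OE-Sham hearts were all above Ctrl-Sham hearts in 6 genes and all below in 3 (backgrounds 8.82% and 8.95%).

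Whether TAC acted differently by genotype was tested by the interaction, the log2 fold change after TAC in CIP-OE hearts minus that in controls. It was called for 5 of the 35 genes, higher for 1 and lower for 4, with a background of 5.43% of all genes higher and 6.18% lower. For Nebl the change after TAC was -1.37 ± 0.16 in controls and -0.26 ± 0.16 in CIP-OE (SE), a difference of 1.12 ± 0.22 (SE), adjusted p = 0.00526. Bag3 changed by 1.17 ± 0.14 and 0.23 ± 0.14, a difference of -0.94 ± 0.20 (SE), adjusted p = 0.00689. For Alpk3 the changes were 1.08 ± 0.15 and 0.25 ± 0.15, a difference of -0.83 ± 0.21 (SE), adjusted p = 0.0169. In these 3 genes the change in CIP-OE had the same sign as in controls and was smaller, and the call held without any 1 library. Speg (0.85 ± 0.15 in controls, 0.063 ± 0.15 in CIP-OE) differed by -0.78 ± 0.22 (SE), adjusted p = 0.0261, and Myl3 (0.49 ± 0.15 and -0.22 ± 0.15) by -0.72 ± 0.22 (SE), adjusted p = 0.0362. Both of these calls were lost when single libraries were left out, with adjusted p up to 0.075 and 0.101. The greatest difference in size after Nebl, Synpo2l at -1.10 ± 0.43 (SE), adjusted p = 0.121, was not called. None of the 5 calls remained after GC correction, where the differences were 0.56 for Nebl, -0.45 for Bag3 and -0.28 for Alpk3. When libraries were scaled by totals that left out the 20 most abundant genes and all mitochondrial ones, the interaction was called higher for 3 and lower for 3 of the genes, and over all genes for 1040 higher and 665 lower against 727 and 828 as tested. On that scaling CIP-OE-TAC against Ctrl-TAC had 5 higher and 3 lower among the 35 genes, and 1605 higher and 1057 lower over all genes against 1220 and 1242.

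**Figure D3:**
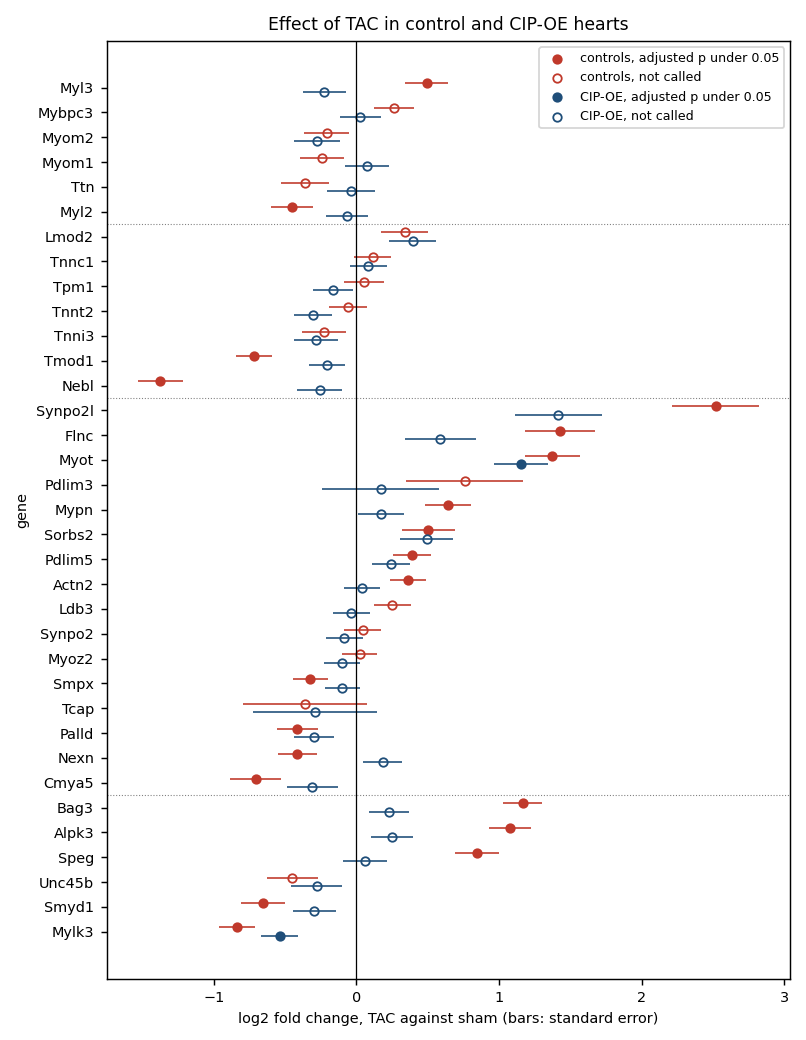
Log2 fold change of TAC against sham for each gene, in controls (red) and in CIP-OE hearts (blue), with bars of 1 standard error and filled points for an adjusted p under 0.05. Dotted lines part the 4 roles. In controls 20 points are filled and in CIP-OE 2 (Myot and Mylk3), and the 2 points stand far apart for Nebl, Bag3, Alpk3, Speg and Myl3.

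Base composition moved with these results and its part in them was not tested. GC content of the longest transcript ran from 37.6% to 62.6% over the 35 genes, with a median of 50.7%. The 9 genes above 55% had a median log2 fold change of 0.85 after TAC in controls, with 6 called higher and none lower, and all genes of that GC content had a median of 0.64. Against Ctrl-TAC, the same 9 genes had a median of -0.44 in CIP-OE-TAC, with 3 called lower, and so did all genes of that GC content. The 7 genes under 45% had a median of 0.023 after TAC in controls, with 2 called higher and 3 lower, against -0.49 over all genes that poor in GC. Calls among all genes of these GC classes were not counted. Over all genes of any GC content, 20.7% were called higher and 20.2% lower after TAC in controls, and 9.27% lower in CIP-OE-TAC against Ctrl-TAC. Across the 35 genes the rank correlation of GC content with the log2 fold change was 0.281 for TAC in controls, -0.437 for CIP-OE-TAC against Ctrl-TAC and -0.018 for TAC in CIP-OE. It was 0.387 for CIP-OE-Sham against Ctrl-Sham and -0.470 for the interaction. Over 13259 genes the values, in the same order, were 0.642, -0.655, 0.0803, 0.321 and -0.663. All are descriptions over genes that share their libraries.

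**Figure D4:**
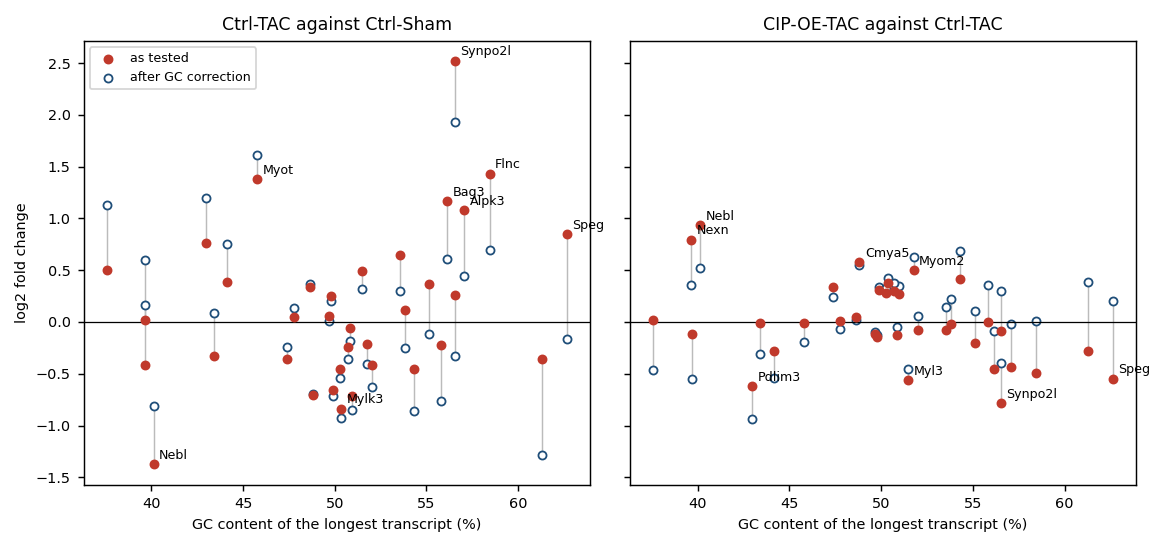
GC content of each of the 35 genes (horizontal axis, percent) against its log2 fold change, as tested (filled red) and after correction of each library for GC content (open blue), joined by a grey line, for TAC in controls (left) and CIP-OE-TAC against Ctrl-TAC (right). On the left, genes above 55% GC drop and genes under 45% rise with the correction, and on the right they move the other way.

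Marker sums of other cell types also differed between groups, and their part in the results was not tested. The 7 cardiomyocyte markers, all present, ranged in their sum from 272541 to 300330 for Ctrl-Sham hearts, from 188128 to 250867 for Ctrl-TAC, from 262686 to 310675 for CIP-OE-Sham and from 212176 to 255557 for CIP-OE-TAC. Fibroblast markers summed to 5360 to 6093, 9443 to 15456, 5019 to 6563 and 6800 to 12830 in the same order, endothelial markers to 4020 to 4058, 5160 to 6340, 4340 to 5403 and 4142 to 5024, smooth muscle markers to 1173 to 1772, 1691 to 2076, 1020 to 1465 and 1211 to 1352, and macrophage markers to 850 to 1277, 733 to 1161, 724 to 833 and 988 to 1076. Both TAC groups thus had lower cardiomyocyte sums and higher fibroblast sums than their sham groups, though single markers differed. After TAC in controls the log2 fold change was negative for 5 cardiomyocyte markers and positive for 2, Actc1 and Csrp3, with 4 called lower and 1 higher. It was positive for 5 fibroblast markers and negative for 2, Pdgfra and Lum, with 4 called higher and none lower. Backgrounds were 20.7% of all genes called higher and 20.2% called lower. After TAC in CIP-OE the log2 fold change was negative for 5 cardiomyocyte markers, positive for 2, and positive for all 7 fibroblast markers. None of these markers was called there, with backgrounds of 0.754% of all genes higher and 0.508% lower.

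Other genes of the sarcomere were counted beside the 35. Of 40 such genes 33 were tested, and 18 rose and 3 fell after TAC in controls, with backgrounds of 20.7% and 20.2% of all genes. Their median log2 fold change was 0.48, against 0.0022 over all genes. With GC correction 11 were called higher and 4 lower, with backgrounds of 1231 and 1567 of 13259 genes. The median was then 0.045, against -0.038 over all genes. The smallest p values belonged to Ankrd23, a muscle ankyrin repeat protein bound to titin (2.26 ± 0.19 (SE), adjusted p = 1.46e-07), Pdlim7, a PDZ and LIM adaptor (1.81 ± 0.17 (SE), adjusted p = 4.31e-07), and Nrap, a scaffold of myofibril assembly (1.22 ± 0.14 (SE), adjusted p = 3e-06). CIP-OE-TAC against Ctrl-TAC called 2 of them lower, Pdlim7 (-0.75 ± 0.17 (SE), adjusted p = 0.0062) and skeletal alpha-actin Acta1 (-1.74 ± 0.46 (SE), adjusted p = 0.0316), and none higher, with backgrounds of 9.27% and 9.11% and a median of -0.25, against 0.0067 over all genes. The Acta1 call was lost when any library of the TAC groups except Ctrl_TAC_3586 was left out, with adjusted p up to 0.0903. With GC correction neither was called, and Pdlim1, a PDZ and LIM protein named after its values were seen, was called lower (-0.74, adjusted p = 0.00988). In CIP-OE hearts TAC raised 4 and lowered none, with backgrounds of 0.754% and 0.508% and a median of 0.15, against 0.0034 over all genes. With GC correction 4 were higher and 1 lower, with backgrounds of 92 and 108 of 13259 genes. The smallest p values as tested for TAC in CIP-OE were those of Ankrd23 (1.41 ± 0.19 (SE), adjusted p = 0.000968) and tropomyosin 2, Tpm2 (1.27 ± 0.22 (SE), adjusted p = 0.00624). CIP-OE-Sham against Ctrl-Sham gave no call in limma, and 4 genes passed at an unadjusted p under 0.05, with a background of 1503 of 13392 genes. The interaction was called lower for 4 and higher for none, with backgrounds of 6.18% and 5.43%, a median of -0.29 against 0.00098 over all genes, no call with GC correction, and the smallest p for Trim54, a sarcomeric ubiquitin ligase (-0.93 ± 0.21 (SE), adjusted p = 0.00976).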

How the data were processed

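Heart RNA-seq of 12 mice was analysed. The deposited table holds a normalized signal (normalized counts), in which the authors scaled the reads of every library with its own factor. The study's methods describe STAR alignment, featureCounts and DESeq2, with mm10, while the submitters' processing notes list DESeq2 1.4.5, HISAT2 2.0.4 and StringTie 2.1.4, on GRCm38, and the annotation release and strand setting are not given in the sources used here. Every value was a whole multiple of its library's factor (0.810 to 1.23) within 0.001 for 100% of values, so whole reads were recovered. Removing 633 exact duplicates from 54515 gene entries left 53882. Low counts limit precision at this depth.

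Values were tested on log2(value + 1) with limma 3.58.1 (R 4.3.3) with a trend and robust empirical Bayes moderation, in 1 fit of 4 group means, over the 13392 genes that reached 10 in 3 or more libraries. Calls required an adjusted p under 0.05 (Benjamini-Hochberg). Fold changes are on this log2 scale, and error is the model's standard error (SE) or the SD of 3 animals. Replicates are separate animals. Same-group libraries differed beyond sampling noise, with a chi-square of 3.85 to 24.6 per degree of freedom. On simulated counts for CIP-OE-TAC against Ctrl-TAC (13392 genes, 100 changed at each fold), 53% of genes changed 2-fold and 90% changed 4-fold were recovered, with 5.30% false calls among those made. The simulated libraries held no shift with GC content, so these rates do not cover the shift seen in the Ctrl-TAC libraries.

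Alternatives were a pseudocount of 5, no filter, a fold over 1.5, scaling to totals that leave out mitochondrial and the 20 most abundant genes, edgeR 4.0.16 and DESeq2 1.42.0 on the recovered reads, correction of each library for GC content or for GC content and length (natural splines with 5 degrees of freedom), and leaving out each library. Positions, exon lengths and GC content came from GENCODE M21 (GRCm38), which held 52966 of 53807 symbols. Promoters came from RefSeq (GRCm38.p6). The 35 genes and all lists were chosen with earlier results of these data known. Values in every library are given for called genes with the smallest adjusted p, up to 10 a comparison, and for the gene with the highest mean of each role. Of other sarcomere genes at most the 3 with the smallest p are named.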

Additional observations from a re-analysis of the deposited data

Results flagged for a closer look

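The change after TAC differed between CIP-OE and control hearts for 5 of the 35 genes by the test of the difference itself (interaction in limma, adjusted over all 13392 genes). The difference, CIP-OE minus controls, was 1.12 on the log2 scale for Nebl, -0.94 for Bag3, -0.83 for Alpk3, -0.78 for Speg and -0.72 for Myl3. After GC correction none of the 5 was called. No single value among groups of 3 was tested for standing apart.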

How the results depend on the processing

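No paired analysis was possible because the groups share no animal numbers. For TAC in controls, 11 genes higher became 7 and 9 lower became 5 with a fold over 1.5, and 7 were higher with GC correction, where all genes went from 2776 to 1231 higher and from 2701 to 1567 lower (1284 and 1596 with GC and length correction). For CIP-OE-TAC against Ctrl-TAC, 5 genes higher became 2 with a fold over 1.5, 3 in edgeR and 1 with either GC correction, and 4 lower became 0 with a fold over 1.5 and 2 with GC correction. All genes there went from 1220 higher to 646 with a fold over 1.5, 199 with GC correction and 230 with GC and length correction, and from 1242 lower to 240 and 276 with these corrections. For TAC in CIP-OE, 1 gene higher became 2 in edgeR, in DESeq2, with GC and length correction and with the scaling that leaves out mitochondrial and the 20 most abundant genes, and 1 lower became 0 with a fold over 1.5. All genes went from 101 higher to 200 in DESeq2, and from 68 lower to 144 in DESeq2, 108 with GC correction and 134 with GC and length correction. For CIP-OE-Sham against Ctrl-Sham, all genes went from 2 higher to 40 in DESeq2 and 4 with no filter, and from 1 lower to 27, to 6 with no filter and to 0 with either GC correction or that scaling. For the interaction, 1 gene higher became 3 in DESeq2, 3 with that scaling, 2 with no filter and 0 with either GC correction, and 4 lower became 0 with either. All genes went from 727 higher to 48 with GC correction and 59 with GC and length correction, and from 828 lower to 70 and 83.

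Leaving out 1 library gave 8 to 12 genes higher and 5 to 10 lower for TAC in controls (all genes 2237 to 2804 and 2086 to 2718), 2 to 8 and 0 to 5 for CIP-OE-TAC against Ctrl-TAC (494 to 1391 and 625 to 1276), 1 to 4 and 0 to 1 for TAC in CIP-OE (27 to 149 and 11 to 114), none for CIP-OE-Sham against Ctrl-Sham (0 to 9 in each direction) and 1 to 4 and 2 to 6 for the interaction (290 to 909 and 417 to 863).

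Direction was followed here for genes with an unadjusted p under 0.05 in a comparison and for genes called in the interaction. Among these it turned with GC correction, and with GC and length correction, for TAC in controls in Speg (-0.16 and -0.052), Nexn (0.17 and 0.17), Actn2 (-0.12 and -0.096) and Smpx (0.085 and 0.040). Genes outside this set turned as well, such as Mybpc3 (from 0.26 to -0.33 and -0.31) and Tnnc1 (from 0.11 to -0.25 and -0.36) for TAC in controls. For CIP-OE-TAC against Ctrl-TAC, direction turned in Speg (0.20 and 0.059) and, outside this set, in Actn2, Tcap and Mybpc3 among others. For the interaction it turned in Speg (0.12 and 0.060). Speg, not called in either case, turned for TAC in CIP-OE with GC correction (-0.039) and, among fits without 1 library (-0.067 to 0.13), without KI_Sham_3643, and for CIP-OE-Sham against Ctrl-Sham with GC and length correction (-0.0010). The cause was not tested.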
